A study of Mus musculus with 15 samples.

Results

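The regions described here are 4521 promoters of mouse pluripotent stem cells that carried acetylation of histone H3 at lysine 27 (H3K27ac) in all 3 cell states of the study, each spanning under 10 kb. They were chosen by their H3K27ac values. Overlapping or touching H3K27ac peaks of the 3 states were joined into union regions, and a region was kept when every state had a peak in it, when its width was under 10000 bp, and when the 5′ end of at least 1 protein-coding gene lay within 1 kb of it. The 4521 members made up 6.43% of the 70360 union regions and 30.2% of the 14972 regions present in all 3 lists. They held the 5′ ends of 5219 of 22350 protein-coding genes, which is the background of 23.4% for every gene list below.

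The study compared embryonic stem cells (ESCs) with 2 kinds of expanded potential stem cells (EPSCs), which are cultures derived from ESCs and described as having a wider developmental potential. By ChIP-seq (chromatin immunoprecipitation and sequencing) the study mapped H3K27ac and the monomethylation of histone H3 at lysine 4 (H3K4me1), in 2 samples for each mark in each state, which with 1 input for each state makes 15 samples. The ESCs were of the J1 line, from 129SV mice, and were kept in serum with leukemia inhibitory factor (LIF) and the 2 inhibitors CHIR99021 and PD0325901. D-EPSCs were cultured in N2B27 medium with knockout serum replacement, LIF, CHIR99021, dimethindene maleate and minocycline hydrochloride. L-EPSCs were cultured in DMEM/F12 medium with knockout serum replacement, LIF, CHIR99021, PD0325901, A-419259, XAV939, JNK inhibitor VIII and SB203580. LIF and CHIR99021 were thus common to the 3 states, PD0325901 was shared by ESCs and L-EPSCs, and serum was used for ESCs only. The ESCs could be grown on feeder fibroblasts or on gelatin, whereas both EPSCs were kept without feeders before the immunoprecipitation, and all cells come from 1 parental line. Media and cell state cannot be told apart in this design.

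H3K27ac is written by the acetyltransferases p300 and CBP and is found at active promoters and active enhancers. At an active promoter the nucleosomes next to the start site usually carry trimethylated H3K4, and H3K4me1 lies further out as flanks on both sides, whereas at enhancers H3K4me1 commonly runs through the element. Many promoters of broadly expressed genes lie in CpG islands, stretches rich in CpG dinucleotides that are usually unmethylated in mouse cells.

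The deposited H3K27ac lists held 64342 peaks (ESCs), 32782 (D-EPSCs) and 26966 (L-EPSCs), and covered 107, 44.4 and 34.3 Mb. The H3K4me1 lists were closer in length, with 107222, 102751 and 105306 peaks over 221, 187 and 173 Mb. Each state and mark had 1 list, so there was no replicate from which a spread could be taken and no test of a difference between states was possible. Intervals given for shares are 95% Wilson intervals and cover counting error only. Read depth is not known from peak positions. Of 22 core and naive pluripotency factors all but Esrrb had H3K27ac within 1 kb of the 5′ end in at least 1 state. Of 20 fibroblast and feeder cell markers, 17 had none in any state, beside 57.3% of all genes. Col1a1, Col1a2, Col3a1 and Postn were among the 17. Vim was at a member, 1 other at a shared promoter region of 10 kb or more and 1 had another H3K27ac pattern.

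To show what these promoters look like in sequence, the 200 bases before the annotated first base are printed for the first 2 members of the pluripotency list and of the ribosomal protein list, and for members with the highest and the lowest CpG content. All are read 5′ to 3′ on the strand of the gene from the NCBIM37 genome (mm9), which is a C57BL/6J sequence and not that of the 129SV cells. Capitals mark matches to 12 motifs that are named with the motif counts further on. The windows of Klf5 and Gm16833 lie wholly outside their union regions, and the other printed windows lie inside theirs. Klf4 lies on the minus strand (chr4:55545348-55545547) and Klf5 on the plus strand (chr14:99697710-99697909). Both encode Krüppel-like factors of the naive pluripotency network.
Klf4: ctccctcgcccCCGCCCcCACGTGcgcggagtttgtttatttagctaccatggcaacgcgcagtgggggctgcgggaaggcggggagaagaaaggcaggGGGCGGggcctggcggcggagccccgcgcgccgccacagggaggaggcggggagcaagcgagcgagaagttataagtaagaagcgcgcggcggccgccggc
Klf5: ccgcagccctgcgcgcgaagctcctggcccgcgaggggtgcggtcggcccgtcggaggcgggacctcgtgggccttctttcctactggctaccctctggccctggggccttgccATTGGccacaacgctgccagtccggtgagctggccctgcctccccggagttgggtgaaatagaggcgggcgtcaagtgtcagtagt
Rplp0 (plus strand, chr5:116009276-116009475) and Rplp1 (minus strand, chr9:61762346-61762545) encode acidic proteins of the large ribosomal subunit, and each holds a pair of CCAAT boxes in this window.
Rplp0: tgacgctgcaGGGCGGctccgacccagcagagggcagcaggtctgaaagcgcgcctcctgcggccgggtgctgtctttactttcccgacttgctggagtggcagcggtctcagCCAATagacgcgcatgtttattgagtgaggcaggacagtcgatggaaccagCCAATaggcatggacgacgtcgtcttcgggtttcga
Rplp1: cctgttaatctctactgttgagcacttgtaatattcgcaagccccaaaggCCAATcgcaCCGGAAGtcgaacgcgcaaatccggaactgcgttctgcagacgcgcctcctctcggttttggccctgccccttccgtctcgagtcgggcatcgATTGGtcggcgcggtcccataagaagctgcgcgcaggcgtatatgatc
Lrrc68 (minus strand, chr7:20147748-20147947) and Hnrnpab, which encodes an RNA-binding protein (minus strand, chr11:51420350-51420549), had the highest observed over expected CpG ratios of those printed, measured over the 500 bases around the start site, and have 17 and 19 CpG dinucleotides in the 200 bases shown.
Lrrc68: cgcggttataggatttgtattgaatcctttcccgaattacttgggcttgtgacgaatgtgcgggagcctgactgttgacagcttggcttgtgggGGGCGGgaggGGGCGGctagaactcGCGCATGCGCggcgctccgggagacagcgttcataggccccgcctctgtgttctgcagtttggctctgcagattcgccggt
Hnrnpab: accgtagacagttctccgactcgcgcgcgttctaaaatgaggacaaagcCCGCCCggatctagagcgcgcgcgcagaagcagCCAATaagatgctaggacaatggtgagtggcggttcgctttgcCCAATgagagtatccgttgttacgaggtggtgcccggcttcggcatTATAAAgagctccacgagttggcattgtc
AI747448 (minus strand, chr3:144595494-144595693), Gm17380 (plus strand, chr8:108097354-108097553) and Gm16833 (plus strand, chr9:9260483-9260682) had a ratio of 0.
AI747448: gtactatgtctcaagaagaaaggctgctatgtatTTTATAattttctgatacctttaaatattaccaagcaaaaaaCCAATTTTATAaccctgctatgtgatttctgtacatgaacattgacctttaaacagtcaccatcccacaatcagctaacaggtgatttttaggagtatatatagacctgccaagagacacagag
Gm17380: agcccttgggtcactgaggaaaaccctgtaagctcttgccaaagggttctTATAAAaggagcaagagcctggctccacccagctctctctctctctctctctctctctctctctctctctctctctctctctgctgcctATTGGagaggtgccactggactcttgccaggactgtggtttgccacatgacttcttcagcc
Gm16833: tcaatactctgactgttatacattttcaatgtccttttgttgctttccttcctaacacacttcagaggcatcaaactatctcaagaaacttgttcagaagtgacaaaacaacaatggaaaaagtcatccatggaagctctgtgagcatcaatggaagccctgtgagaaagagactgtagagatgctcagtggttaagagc
The ratio was 1.28 for Lrrc68 and 1.24 for Hnrnpab, 0.943 for Klf4, 0.841 for Klf5, 0.954 for Rplp0 and 1.11 for Rplp1. The median over genes at members was 0.839, so Klf5 lay near the middle of the members and the other 3 above it.

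The members spanned 246 to 9974 bp, with a median union width of 1925 bp. The number of bases under H3K27ac in a member is called its acetylated bases. Its median was 1635 bp (ESCs), 1267 bp (D-EPSCs) and 932 bp (L-EPSCs). The ESC peak filled most of a typical region. It covered a median of 91.7% of the union region, against 71.7% (D-EPSCs) and 52.0% (L-EPSCs). The median log2 ratio of acetylated bases was -0.30 for D-EPSCs over ESCs and -0.69 for L-EPSCs over ESCs. Between the 2 EPSCs it was -0.33 for L-EPSCs over D-EPSCs. The comparisons with ESCs share the ESC list. These values come from the marks that chose the members and are given as a description.

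**Figure D1:**
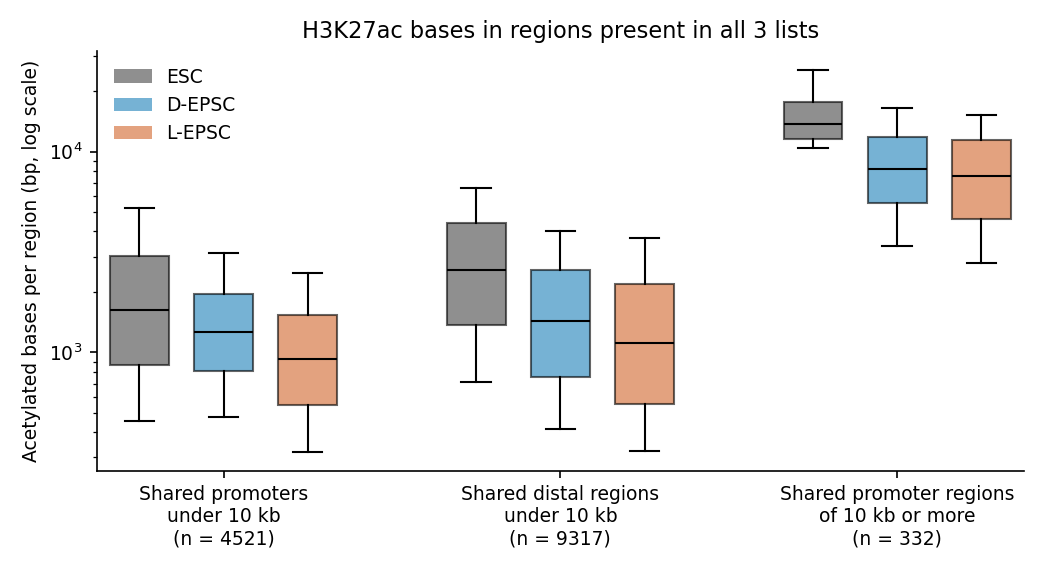
Acetylated bases per region (bp, log scale) in ESCs, D-EPSCs and L-EPSCs for 4521 shared promoters under 10 kb, 9317 shared distal regions under 10 kb and 332 shared promoter regions of 10 kb or more. Lines inside the boxes are medians, boxes run from the 25th to the 75th percentile and whiskers from the 10th to the 90th; the promoters under 10 kb step from 1635 to 1267 to 932 bp.

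The order ESC over D-EPSC over L-EPSC was the most frequent and was held by 2074 members (45.9%). ESCs had the widest acetylation in 2839 members (62.8%), D-EPSCs in 1345 (29.8%) and L-EPSCs in 335 (7.41%). L-EPSCs had the narrowest in 2826 members (62.5%). Among the 9317 shared regions under 10 kb with no start site near them (distal regions), ESCs were widest in 71.5%, and among the 332 shared promoter regions of 10 kb or more in 94.3%. The median log2 ratios of distal regions were -0.66 in D-EPSCs and -0.98 in L-EPSCs over ESCs, and those of the promoter regions of 10 kb or more were -0.84 and -0.93. Acetylated bases within 1.5 times of each other in all 3 states were found in 1073 members (23.7%), against 15.3% of distal regions. A single peak per list was the rule for the members (3622, or 80.1%), compared with 68.4% of distal regions and 2.71% of the promoter regions of 10 kb or more.

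In D-EPSCs 1008 members (22.3%) had at least 2-fold fewer acetylated bases than in ESCs, beside a background of 33.8% of all regions in the 3 lists, and 358 (7.92%) had at least 2-fold more, beside 6.08%. For L-EPSCs, 1682 members (37.2%) were at least 2-fold narrower, beside 45.5%, and 181 (4.00%) at least 2-fold wider, beside 3.88%. The ratios fell with width. The 1129 members of the lowest width quartile (246 to 1224 bp) had median log2 ratios of 0.15 and -0.20 for D-EPSCs and L-EPSCs over ESCs, and the 1131 members of the highest (3333 to 9974 bp) had -0.80 and -1.18, with -0.10 and -0.51, and -0.43 and -0.88, in the quartiles between. Since a wide member is usually one with a wide ESC peak, this gradient is partly fixed by how the regions were drawn. Distal regions of the same 2 width ranges had -0.22 and -0.42, and -0.89 and -1.17. The ESC list also held more peaks than either EPSC list, and the part of list length in these ratios was not tested. Lists of equal length kept the widest peaks of each list, which leaves out the narrower ESC peaks. The median ratios of -0.54 and -0.94 found with them therefore cannot show that part.

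The extremes were read among members with 1 start site and at least 500 acetylated bases in each state. Etv5, an ETS-family transcription factor (chr16:22438109-22443631), had 957 acetylated bases (ESCs), 5523 (D-EPSCs) and 3899 (L-EPSCs). Prdx6, a peroxiredoxin (chr1:163176416-163181290), had 784 (ESCs), 4350 (D-EPSCs) and 4851 (L-EPSCs). In both genes a short ESC peak, or a pair of them in Prdx6, lay inside an EPSC peak several times as long. Psmd5, a proteasome assembly factor, followed with 515, 2488 and 1828 bp, Zic5, a zinc finger transcription factor, with 756, 2326 and 2336 bp, and Ptprcap with 536, 1549 and 1872 bp.

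The reverse was seen at Pramef12, a PRAME-family gene (chr4:143990180-143998879), where ESCs had 8700 acetylated bases, D-EPSCs 590 and L-EPSCs 702. Emilin1, an extracellular matrix glycoprotein, had 6321, 568 and 503 bp, and Pcolce2, which enhances procollagen processing, had 6750, 760 and 677 bp. Plekhg3 had 5758, 715 and 650 bp, and Itgb7, an integrin subunit, had 5930, 628 and 783 bp. All 5 had a single peak in every list, and in each of them the EPSC peaks were about as short as each other, with log2 ratios of L-EPSCs over D-EPSCs from -0.18 to 0.32.

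The 2 EPSCs differed most from each other at Slc7a7, an amino acid transporter (chr14:55028490-55034805), with 6202 acetylated bases in D-EPSCs and 636 in L-EPSCs beside 5897 in ESCs. Crlf2, a cytokine receptor subunit, had 4130 in D-EPSCs, 649 in L-EPSCs and 646 in ESCs, so its long form was found in D-EPSCs alone. Gm10203 showed the same arrangement, with 8378 bp in D-EPSCs beside 1326 in ESCs and 990 in L-EPSCs. Dapp1, a signalling adaptor, and Kifc1, a mitotic kinesin, were shortest in L-EPSCs, at 535 and 847 bp. In the other direction Cd9, a tetraspanin (chr6:125443376-125449268), had 5893 bp (ESCs), 805 (D-EPSCs) and 3703 (L-EPSCs). Ldhb, a lactate dehydrogenase subunit, had 2842, 909 and 3920 bp, and Ccdc141 had 8912, 629 and 3299 bp. Trim35 (1066, 502 and 2147 bp) and Kng2 (989, 1180 and 4826 bp) were longest in L-EPSCs. The shortest state was thus L-EPSCs at Slc7a7 and D-EPSCs at Cd9 and Ldhb.

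At the limits of the definition, the widest members were the regions of Tnrc18 and of Pigl with Ncor1, both 9974 bp, and of Lasp1 (9933 bp). The regions of Hmgb2 (10021 bp), Zfp428 (10023 bp) and Lax1 (10025 bp) fell just outside. At the other limit, the region of 2210404O09Rik lay 974 bp from its start site, that of Agmat 961 bp and that of Slc25a25 952 bp, while those of Ell2 (1005 bp), Tmem43 (1011 bp) and Def8 (1018 bp) were left out. Acetylated bases in ESCs were 1486, 4214 and 2085 for the 3 regions inside this limit and 6383, 3720 and 7709 for the 3 outside it.

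Most members held a start site inside the region (3905, or 86.4%) and most had 1 gene (3803, or 84.1%). A further 694 had 2 start sites, 23 had 3 and 1 had 4. Start sites on both strands were found in 681 members (15.1%), of which 433 were single pairs facing away from each other with a median of 168 bp between their first bases, and 224 were pairs whose 5′ ends overlapped. Members with start sites on both strands had median log2 ratios of -0.07 for D-EPSCs and -0.46 for L-EPSCs over ESCs, compared with -0.33 and -0.72 for members with 1 start site. Of the bases in members, 18.02% lay in exons of protein-coding genes, 36.0% in introns and 45.9% outside such genes. In distal regions 3.76% were exonic and 46.3% intronic. The 1 kb limit sets these 2 classes apart by their distance to 5′ ends, so the contrast is partly fixed by it. In promoter regions that lacked H3K27ac in at least 1 list 21.4% were exonic and 33.5% intronic.

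H3K27ac was not symmetric about the start site. At members with 1 gene, the share of start sites under a peak was highest 150 to 200 bp into the gene in every state, at 78.4% (ESCs), 86.3% (D-EPSCs) and 78.0% (L-EPSCs). At the first base itself it was 66.9%, 74.99% and 59.5%. At -1000 bp (upstream) the shares were 47.7%, 25.6% and 16.6%, and at 1000 bp downstream 35.7%, 22.0% and 16.4%. ESCs therefore carried more of their acetylation before the gene. The median was 788 acetylated bases upstream and 651 downstream in ESCs, 547 and 599 in D-EPSCs, and 389 and 471 in L-EPSCs. More bases lay upstream than downstream in 54.0% of members (ESCs), 45.7% (D-EPSCs) and 42.9% (L-EPSCs).

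H3K4me1 was not used to choose the members. A peak of at least 1 bp overlapped 3268 members in ESCs (72.3%, interval 71.0% to 73.6%), 3958 members in D-EPSCs (87.5%, 86.6% to 88.5%) and 4187 members in L-EPSCs (92.6%, 91.8% to 93.3%). Over the regions in all 3 H3K27ac lists, which include the members, the background rose in the same order, at 86.7% (ESCs), 92.8% (D-EPSCs) and 94.6% (L-EPSCs). Over all union regions it was 79.6%, 73.1% and 72.3%, and the bases covered by the H3K4me1 lists also declined from ESCs to L-EPSCs. Distal regions were close to even, at 92.2%, 94.4% and 94.9%. All 332 shared promoter regions of 10 kb or more had H3K4me1 in each state. Promoter regions that lacked H3K27ac in at least 1 list had 55.1%, 72.0% and 79.1%, an order like that of the members. The intervals of the 3 states do not overlap for the members, but they measure counting error within 1 list per state and not the spread between cultures.

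Across the states 3261 members (72.1%) had H3K4me1 in all 3, 668 (14.8%) in both EPSCs and not in ESCs, 255 (5.64%) in L-EPSCs alone and 26 in D-EPSCs alone. Promoter regions that lacked H3K27ac in at least 1 list had 51.5%, 17.9% and 8.98% for the first 3 of these patterns. All union regions had 61.6%, 4.34% and 2.58%. A total of 304 members (6.72%) had no H3K4me1, beside 16.8% of those promoter regions and 12.4% of all union regions. Of the 3268 members marked in ESCs only 7 lacked the mark in one or both EPSCs, so the sets were almost nested. The covered part of a member was smaller than the counts of overlap may convey, with a median of 26.7% of the region (ESCs), 44.9% (D-EPSCs) and 50.0% (L-EPSCs), compared with 88.5%, 84.9% and 84.2% in distal regions.

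The shares went with the width of the region. In the narrowest quartile of members H3K4me1 overlapped 28.9% (ESCs), 60.0% (D-EPSCs) and 74.8% (L-EPSCs), and in the widest 99.2%, 99.9% and 99.8%. Among the 1230 distal regions of the narrowest range the shares were 64.7%, 76.7% and 82.4%. In the second range they were 68.7%, 91.3% and 96.5% for members and 88.5%, 91.5% and 91.4% for distal regions. Nearly all wide members overlapped the mark, so this share leaves little room for a difference there. Measures further from their ceiling kept the order of ESCs below the EPSCs at every width. The first base lay under H3K4me1 in 3.21% (ESCs), 10.98% (D-EPSCs) and 20.1% (L-EPSCs) of the genes in the narrowest quartile and 12.8%, 26.7% and 32.3% in the widest. The median covered part of a member was 35.6%, 50.5% and 54.2% in the third range and 62.3%, 69.6% and 69.6% in the widest.

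**Figure D2:**
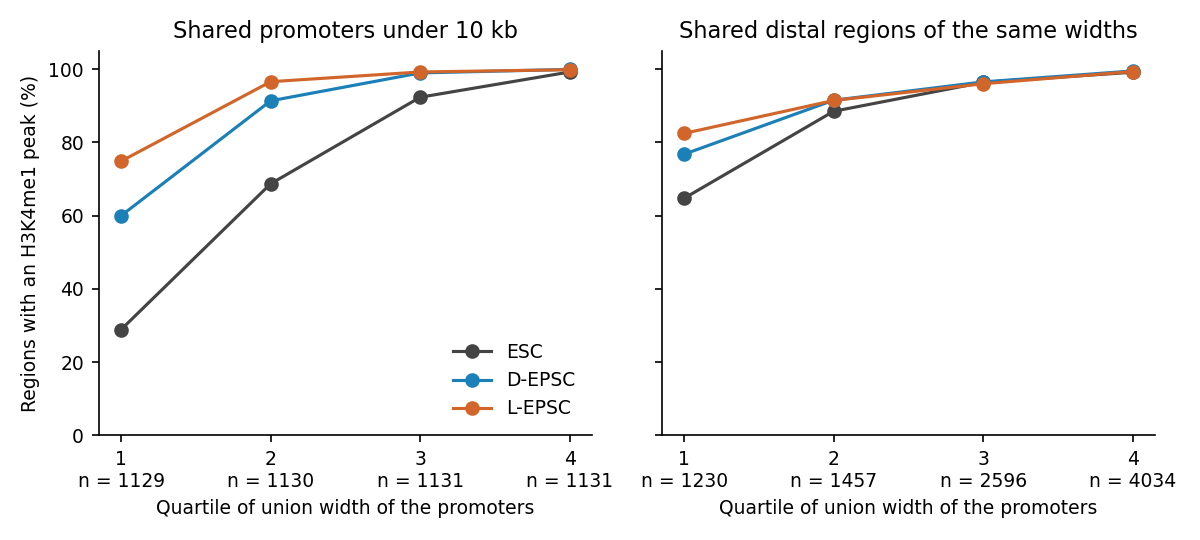
Share of regions with an H3K4me1 peak (%) in ESCs, D-EPSCs and L-EPSCs, for the 4 quartiles of union width of the shared promoters under 10 kb (left) and for shared distal regions falling in the same width ranges (right). In the narrowest quartile the promoters run from 28.9% in ESCs to 74.8% in L-EPSCs and the distal regions from 64.7% to 82.4%, and in the widest all 6 points lie above 99%.

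At the first base of the gene H3K4me1 was rare in the members. It lay under an H3K4me1 peak at 338 of 5219 genes in ESCs (6.48%, interval 5.84% to 7.18%), 865 genes in D-EPSCs (16.6%, 15.6% to 17.6%) and 1258 genes in L-EPSCs (24.1%, 23.0% to 25.3%). The backgrounds over all 22350 genes were 11.4%, 26.2% and 31.8%. For genes at the 332 wider shared promoter regions the shares were 20.6%, 35.0% and 42.4%, and for the 12814 genes without H3K27ac within 1 kb 11.6%, 28.5% and 31.7%. The order of the states was therefore that of all genes, at a lower level. A first base marked in both EPSCs and not in ESCs was found at 475 genes of members (9.10%), beside a background of 14.6%, and the reverse, in ESCs alone, at 17 (0.326%). In D-EPSCs H3K4me1 covered 12.8% of the first bases of members that were acetylated and 28.8% of those that were not. In L-EPSCs these shares were 20.5% and 29.8%, and in ESCs 7.10% and 5.25%. Over all genes they were 14.8% and 29.9% (D-EPSCs), 23.9% and 33.4% (L-EPSCs), and 13.0% and 10.9% (ESCs).

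H3K4me1 lay as flanks on both sides of the start site. Where the first base was uncovered, the distance between the H3K4me1 peaks on its 2 sides had a median of 1941 bp (ESCs), 1294 bp (D-EPSCs) and 1075 bp (L-EPSCs). The upstream peak ended a median of 710.5 bp before the first base (ESCs), 422 bp (D-EPSCs) and 359 bp (L-EPSCs), and the downstream peak began 1136, 789.5 and 657 bp after it. At members with 1 gene the upstream shoulder of H3K4me1 reached 68.0% at -1050 bp in ESCs, 78.9% at -750 bp in D-EPSCs and 81.4% at -650 bp in L-EPSCs. The downstream shoulder reached 77.8% at 1950 bp, 84.3% at 1600 bp and 86.1% at 1300 bp. Between them the lowest values were 6.02%, 16.7% and 25.2%. At members with start sites on both strands the gap was wider, with medians of 2072, 1405 and 1140 bp, and nearly symmetric.

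**Figure D3:**
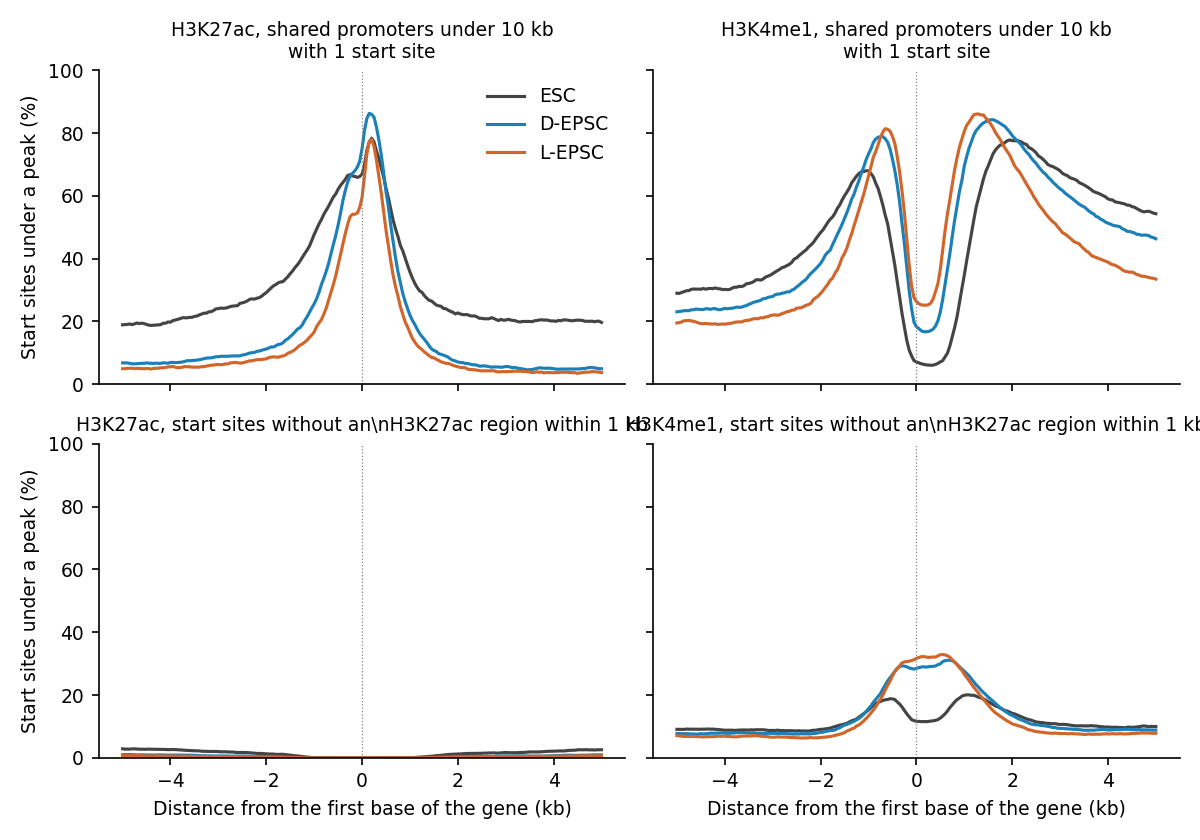
Share of start sites under a peak (%) by distance from the first base of the gene (kb, negative upstream), for H3K27ac (left) and H3K4me1 (right), at 3803 shared promoters under 10 kb with 1 start site (top) and at 12814 genes with no H3K27ac region within 1 kb (bottom). The H3K4me1 gap of the promoters is widest and deepest in ESCs (6.02% at its lowest) and narrowest in L-EPSCs (25.2%), while the genes without H3K27ac peak at 32.9% or less.

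Single promoters show the range of this pattern. The widest members with no H3K4me1 in any state were those of Ogn, an extracellular proteoglycan (4229 bp), Yy1, a transcription factor (2458 bp), Kdm6a, a demethylase of H3K27 (2369 bp), Ddx5 with Ccdc45 (2258 bp) and Zfx, a zinc finger factor (2222 bp). Yy1 had 2223, 2065 and 1601 acetylated bases in ESCs, D-EPSCs and L-EPSCs, so its acetylation was much alike in the 3 states. Ogn had 4229, 2095 and 923 and a CpG observed over expected of 0.178, which sets it apart from Yy1 at 0.989.

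Among members with 1 start site whose first base lay under H3K4me1 in both EPSCs and not in ESCs, the widest were 5730528L13Rik, Nynrin, Lace1, Nfatc3 and Tmem8, with union widths from 9065 to 9642 bp. Nfatc3, a calcium-regulated transcription factor (chr8:108575047-108584173), had 9113 acetylated bases (ESCs), 2560 (D-EPSCs) and 2708 (L-EPSCs). All 5 were widest in ESCs. The reverse pattern was led by Cdkn1a, the cell cycle inhibitor p21 (chr17:29225317-29232509), with 7193, 2845 and 2321 acetylated bases and 4592, 3670 and 2052 bases under H3K4me1. Acsbg2, Cox8b, Gm17581 and Nupr1 followed. Each of these 5 had a CpG observed over expected of at most 0.317.

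A start site was called CpG-island-like when the 500 bases around it had at least 50% GC and at least 0.6 observed over expected CpG. This held for 3814 members (84.4%) and for 4338 of the 5219 genes at members (83.1%), compared with 61.8% of genes at the wider shared promoter regions, 26.4% of genes without H3K27ac and 47.6% of all genes. With H3K27ac in other patterns, the share ran from 41.7% of genes (ESCs alone) to 90.7% (both EPSCs and not ESCs). It was 84.1% for D-EPSCs alone, so a high share was not particular to the members. The median GC content was 63.2% at genes of members and 57.2% over all genes, and the median observed over expected ratio was 0.839 and 0.588. Over the whole union region members had a median GC content of 54.2% and a ratio of 0.653, and distal regions 46.3% and 0.217. Promoter regions that lacked H3K27ac in at least 1 list had 55.5% and 0.564.

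**Figure D4:**
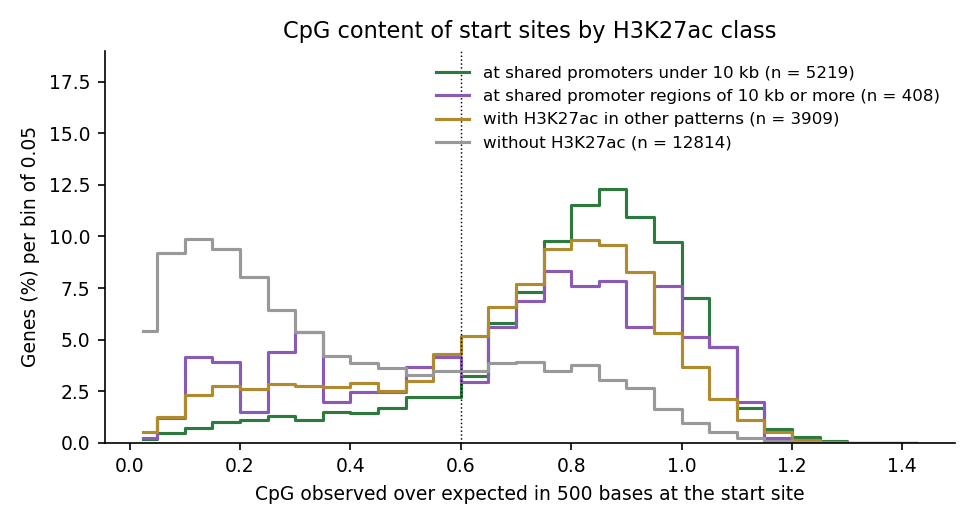
Distribution of CpG observed over expected in the 500 bases at the start site (share of genes, %, in bins of 0.05) for 5219 genes at shared promoters under 10 kb, 408 at shared promoter regions of 10 kb or more, 3909 with H3K27ac in other patterns and 12814 without H3K27ac. The dotted line is the limit of 0.6; genes at the shared promoters under 10 kb form 1 main hump above it (median 0.839) and genes without H3K27ac lie mostly below it (median 0.313).

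Within the members H3K4me1 at the first base went with CpG content. It was found at 0.438%, 7.45% and 15.3% of the 4338 CpG-island-like genes in ESCs, D-EPSCs and L-EPSCs, and at 36.2%, 61.5% and 67.5% of the other 881. For the 251 genes with a ratio under 0.3 the shares were 69.7%, 79.7% and 79.3%. The 707 members without a CpG-island-like start site were wider (median 2727 against 1834 bp) and had lower ratios of acetylated bases over ESCs, -0.62 (D-EPSCs) and -0.99 (L-EPSCs), compared with -0.23 and -0.65 for the others. Width and CpG content moved together here, and their parts were not separated.

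Motif matches were counted on both strands in the 300 bases from 250 before to 50 after the first base. No motif searched is contained in another, though matches may overlap in a promoter. The GC box GGGCGG, bound by Sp and Klf factors, was found at 64.8% of genes of members and 43.5% of all genes, and at 71.8% and 72.9% of those that were CpG-island-like. The ETS motif CCGGAAG was found at 19.5% and 10.8%, and at 22.0% and 18.99% among CpG-island-like genes. The NRF1 motif GCGCATGC was found at 6.30% and 3.30%, and at 7.33% and 6.04%. The YY1 motif AAGATGGCG stood at 4.60% of genes of members, 1.83% of all genes and 0.460% of genes without H3K27ac, and at 5.33%, 3.35% and 0.740% among CpG-island-like ones. The motif CTCGCGAGA, known to bind ZBTB33, was found at 138 genes of members (2.64%) of 193 in all (0.864%), and at 3.14% and 1.69% among CpG-island-like genes. Within CpG-island-like genes the share at members was thus above that of all genes for the ETS, NRF1, YY1 and CTCGCGAGA motifs, and below it for the GC box. Genes with H3K27ac in other patterns had the GC box at 59.5%, the ETS motif at 18.96% and the NRF1 motif at 5.12%. They had the YY1 motif at 2.58% and CTCGCGAGA at 0.793%. The shares of all genes include the genes at members. No test was made of these shares.

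CCAAT, bound by NF-Y, was found at 37.6% of genes of members and 37.9% of all genes. The cyclic AMP response element TGACGTCA stood at 3.66% and 2.33%, the E-box CACGTG at 10.998% and 7.79%, and the Ronin motif ACTACAATT at 0.747% and 0.470%. Among CpG-island-like genes these 3 were at 4.06% and 3.78%, 11.8% and 11.3%, and 0.807% and 0.677%. For genes with H3K27ac in other patterns they were at 3.56%, 10.7% and 0.844%. The TATA box TATAAA was found at 6.57% of genes of members, 14.7% of genes at the wider shared promoter regions and 13.4% of all genes, and at 5.51% and 5.54% of CpG-island-like ones. The octamer ATGCAAAT, bound by POU factors such as Oct4, stood at 1.40% and 1.73%, and the Esrrb motif TCAAGGTCA at 0.307% and 0.358%. In the printed sequences Hnrnpab has a TATA box at -29 bp, and Rplp0 has CCAAT boxes at -36 and -87 bp. A match describes letters and not a bound site.

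By function, 10 lists of genes for basic cell processes had 40.7% to 94.7% of their genes at members, beside the 23.4% of all genes. Of 76 cytoplasmic ribosomal protein genes in the annotation 72 (94.7%) were at members. Among the exceptions were Rps21 at a wider shared region, Rpl18 with H3K27ac in D-EPSCs alone, and Rpl13a with none within 1 kb of its annotated 5′ end. That end of Rpl13a lay under H3K4me1 in all 3 states. Rplp0 had 1656, 1494 and 787 acetylated bases in ESCs, D-EPSCs and L-EPSCs, Rplp1 915, 2016 and 1544, Rplp2 4936, 5498 and 3012, and Rpl3 3519, 3084 and 2719. The order of the states differed among these 4, and the medians of the log2 ratios over ESCs were -0.10 in D-EPSCs and -0.68 in L-EPSCs for the 72 genes. H3K4me1 overlapped the region of 52 of the 72 (ESCs), 64 (D-EPSCs) and 69 (L-EPSCs), but their first base at 2, 2 and 3.

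**Figure D5:**
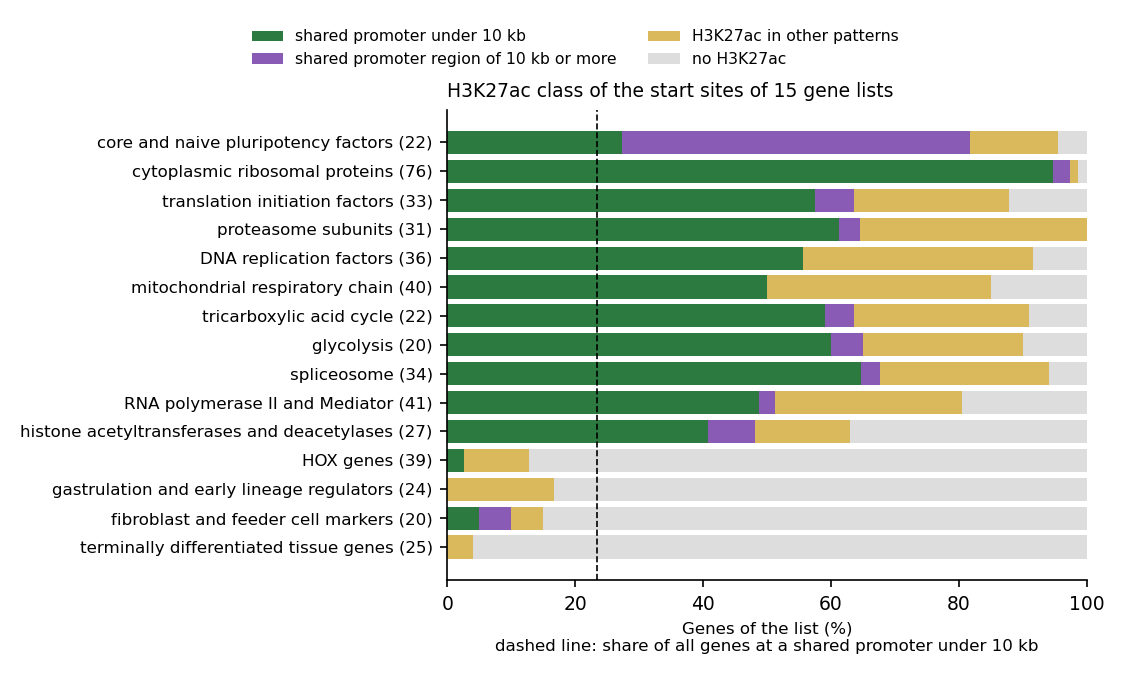
Share of the genes of 15 lists (%, number of annotated genes in brackets) whose start site was at a shared promoter under 10 kb, at a shared promoter region of 10 kb or more, near H3K27ac in other patterns, or without H3K27ac within 1 kb. The dashed line marks the 23.4% of all genes at shared promoters under 10 kb; the ribosomal proteins reach 94.7%, and the pluripotency factors are mostly at the wider regions.

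Translation initiation factors were at members for 19 of 33 genes, proteasome subunits for 19 of 31 and spliceosome genes for 22 of 34. Their medians over ESCs ran from -0.21 to -0.04 for D-EPSCs and from -0.40 to -0.23 for L-EPSCs. Eif1, which selects the start codon, had 9416, 4957 and 3693 acetylated bases, and Eif2s1, a subunit of the initiator tRNA carrier, had 687, 1323 and 1240 with no H3K4me1 in any state. Psma6, of the proteasome core, was acetylated over 8921, 6336 and 5749 bases and had H3K4me1 at its first base in all 3 states, unlike Psma3 and Psma7, which had it in none. Sf3b1, of the U2 particle, had 6133, 4246 and 3014 bases, and Sf3b3 had 1324, 1140 and 1246 with no H3K4me1. Long and short promoters were thus found within 1 complex.

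DNA replication factors were at members for 20 of 36 genes, with medians of -0.13 and -0.20. Mcm2, Mcm3, Mcm4 and Mcm5, subunits of the replicative helicase, had 2171, 1535, 1691 and 7962 acetylated bases in ESCs. In D-EPSCs they had 1192, 793, 1498 and 3769, and in L-EPSCs 536, 509, 1327 and 1825. These 4 were widest in ESCs and narrowest in L-EPSCs, and none had H3K4me1 at the first base in any state. Mcm7, of the same helicase, had 342, 2241 and 2135 acetylated bases and was narrowest in ESCs. Over the 20 genes 11 were widest and 8 narrowest in ESCs. Of all members 62.8% were widest in ESCs, and ESCs were narrowest in 13.1% with D-EPSCs widest and 4.80% with L-EPSCs widest.

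Energy metabolism was split. The mitochondrial respiratory chain had 20 of 40 genes at members, with medians of -0.02 and -0.43, and the tricarboxylic acid cycle 13 of 22, with 0.29 and -0.28. Ndufs1, of complex I, had 1093, 1364 and 1324 acetylated bases, and Idh3g, a subunit of isocitrate dehydrogenase, 1043, 1706 and 1717. Both were narrowest in ESCs, but Sdha and Sdhb, subunits of succinate dehydrogenase, were widest there, with 1021, 407 and 328 bases and 4683, 1659 and 1468. In all, 6 of the 20 respiratory chain genes and 4 of the 13 cycle genes were narrowest in ESCs, and 9 and 4 were widest. Of all members 62.8% were widest in ESCs. ESCs were narrowest in 13.1% of members with D-EPSCs widest and in 4.80% with L-EPSCs widest. Glycolysis had 12 of 20 genes at members, with medians of -0.70 and -1.11. Hk2, which phosphorylates glucose, had 2202, 1265 and 732 bases, Gpi1 9131, 4910 and 4024, and Pfkl, a phosphofructokinase subunit, 5305, 1604 and 507. Pfkm had 936, 1187 and 750. Of the 12 genes 9 were widest in ESCs. H3K4me1 lay on the first base of 1 of the 12 glycolysis genes (ESCs), 5 (D-EPSCs) and 8 (L-EPSCs), compared with 0, 1 and 2 of the 13 genes of the tricarboxylic acid cycle. Over all regions in the 3 lists the median ratios were -0.56 and -0.88, so the medians of the glycolysis list lay below them and those of the cycle list above. Single genes were mixed, with 7 of 12 glycolysis genes and 2 of 13 cycle genes below the median of D-EPSCs, and 9 and 5 below that of L-EPSCs. The medians over all members, -0.30 and -0.69, also lay above those of all regions in the 3 lists. Ratios fell with region width, and the gene lists were not matched for width. No test of a list was possible.

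The transcription and acetylation machinery was represented by RNA polymerase II and Mediator, with 20 of 41 genes and medians of 0.0017 and -0.65, and by histone acetyltransferases and deacetylases, with 11 of 27 and medians of -0.03 and -0.32. Polr2a, the largest polymerase subunit, had 4632, 1683 and 1284 acetylated bases, and Polr2l, a small one, 305, 1307 and 269. Ep300, the p300 acetyltransferase that itself writes H3K27ac, had 2878, 2472 and 2313, Kat2a 2391, 2472 and 1766, Kat5 1330, 1398 and 873, and Kat6a 1359, 941 and 911. Kat8, another acetyltransferase, had 3819, 1925 and 999, a spread about as wide as that of Polr2a. Of the 11 members of this list 6 were widest in ESCs and 5 in D-EPSCs, beside 62.8% and 29.8% of all members.

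Pluripotency factors were at members for 6 of 22 genes (27.3%), near the 23.4% of all genes. Another 12, with Pou5f1 and Sox2 among them, were at wider shared regions, a class that held 1.83% of all genes. Zfp42, also known as Rex1 (chr8:44389562-44396814), had 7202, 7253 and 7208 acetylated bases in ESCs, D-EPSCs and L-EPSCs and hardly differed between the states. Klf4 (chr4:55542573-55547641) had 5069, 1910 and 3741, and Prdm14, a repressor of differentiation (chr1:13115311-13119002), had 3692, 485 and 2408, so both were shortest in D-EPSCs. Klf5 (chr14:99697988-99702913) had 4887, 990 and 456, Dppa4 (chr16:48280720-48286426) 4467, 2779 and 911, and Utf1 (chr7:147129765-147139553) 9567, 8171 and 4785, and these 3 were shortest in L-EPSCs. The 6 genes had medians of -1.05 for D-EPSCs and -0.81 for L-EPSCs over ESCs. All 6 regions overlapped H3K4me1 in every state, and its bases at Klf4 were 618, 3269 and 2408. The first base was covered in neither ESCs nor EPSCs for Klf4, Klf5 and Zfp42, in both EPSCs for Prdm14 and Dppa4, and in L-EPSCs alone for Utf1.

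Regulators of later development were nearly absent from the members. Of 39 HOX genes 34 had no H3K27ac within 1 kb in any state, beside 57.3% of all genes, and 1 was at a member. None of 24 gastrulation and early lineage regulators and none of 25 genes of differentiated tissues was at a member. Of the fibroblast and feeder cell markers only Vim, which encodes the intermediate filament vimentin, was, with 4116, 1568 and 588 bases. The part of feeder cells in the wider acetylation of ESCs was not tested.

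The X chromosome stood apart from the others. It held 58 members, and 63 of its 932 protein-coding genes (6.76%) were at members, while the autosomes ranged from 18.99% on chromosome 14 to 31.8% on chromosome 8. Members on the X chromosome had a median log2 ratio of 0.23 in D-EPSCs and -0.27 in L-EPSCs over ESCs, and the medians of the autosomes ran from -0.43 to -0.15 and from -0.78 to -0.62. H3K4me1 overlapped 27.6%, 60.3% and 70.7% of X-linked members in ESCs, D-EPSCs and L-EPSCs, below every autosome in each state. Idh3g, Kdm6a and Zfx are X-linked, as is Eif2s3x, a subunit of the initiator tRNA carrier, which had 298, 529 and 263 acetylated bases with no H3K4me1. Peak lists carry no signal, so the share of reads from this chromosome could not be set beside these values.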

How the data were processed

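The authors sequenced read pairs, aligned them to mm9 with Bowtie2 2.3.5, used SAMtools 1.10, and ran MACS2 in broad mode with the input as control. The deposited files give peak positions alone, 1 list per state and mark. The threshold of the calls and the pooling of the 2 samples are not given in the sources used here. From these lists union regions, covered bases and overlaps (at least 1 bp) were computed with Python 3.11.15 and numpy 2.4.6, and interval arithmetic was tested on simulated data. Positions are 1-based. Start sites were 5′ ends of 22350 protein-coding genes on chromosomes 1 to 19 and X in GENCODE M1, which is built on NCBIM37 (mm9). Each gene was given 1 start site, its outermost annotated 5′ end, which need not be the one in use in these cells. Other start sites of a gene were not examined, for H3K27ac or for H3K4me1 at the first base. CpG content was taken from 500 bases around a start site. Of 492 listed genes 490 were found. Intervals of shares are 95% Wilson intervals from scipy 1.17.1. For the median log2 ratios the 95% limits were ranked values, with ranks set by the binomial distribution. These limits were used only to sort the alternatives.

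The members and gene lists were chosen with earlier results of these data known. Named genes are the first 4 members of each list in list order, or all of up to 5 members or non-members, the most extreme width ratios, the regions next to each limit, and the widest or most extreme for H3K4me1 and CpG. Dppa4, Utf1, Esrrb, Pou5f1, Sox2, Postn, Mcm7, Kat8, Sdha, Sdhb and the collagen genes fall outside this rule and were named after their values were seen. Some genes that the rule names are not reported here. Alternatives were other width and distance limits, a minimum peak width, lists of equal length, joining over gaps, autosomes alone, at least 50% coverage by H3K4me1 and a stricter CpG limit. No sample was left out.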

Additional observations from a re-analysis of the deposited data

How the results depend on the processing

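No paired analysis was possible because each state and mark has 1 peak list, so the replicate numbers of the labels do not appear in the values, and leaving out a replicate could not be run for the same reason. Of 98 recomputed values 55 stayed within the 95% interval of the reported value (within 1.5 times for the number of members), 43 did not, and 0 changed sign. In each alternative the order of the states was kept for the median ratios and for both H3K4me1 measures. H3K27ac lists of equal length, made of the widest peaks, gave 2853 members with median log2 ratios of -0.54 (D-EPSCs) and -0.94 (L-EPSCs). H3K4me1 overlapped (values in the order ESCs, D-EPSCs, L-EPSCs here and below) 90.1%, 97.8% and 98.9% of members and 8.07%, 19.8% and 26.9% of first bases, with 13.4% of members on both strands and 81.9% CpG-island-like. A width limit of 5000 bp gave ratios of -0.21 and -0.63, overlaps of 68.3%, 85.8% and 91.6%, first bases of 5.41%, 14.6% and 22.2%, and 86.1% CpG-island-like. A limit of 20000 bp gave -0.33 for D-EPSCs, with 73.9% and 7.24% for the 2 H3K4me1 measures in ESCs. Peaks of at least 500 bp gave -0.34 for D-EPSCs and overlaps of 80.8%, 93.4% and 96.9%. Joining over gaps of up to 1 kb gave -0.39 and -0.81, and 76.4%, 89.1% and 93.6%. Start sites inside the region gave overlaps of 75.1%, 90.3% and 94.4%, first bases of 5.82% in ESCs and 15.4% in D-EPSCs, 13.8% on both strands and 85.6% CpG-island-like. Requiring at least 50% of the region under H3K4me1 gave 28.0%, 43.9% and 50.1%. The stricter CpG limit (55% GC and 0.65) gave 77.6%. The alternatives differ in which members they hold, and the cause of each shift was not tested. What the lists cannot show is signal within a peak, so a narrower peak and a weaker one cannot be told apart.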
